A study of Mus musculus with 12 samples.

Results

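The heat shock protein chaperones were followed through the neuronal differentiation of P19 cells as a set of 10 genes: Hsp90aa1, Hsp90ab1, Hsp90b1, Hspa4, Hspa5, Hspa8, Hspa9, Hspd1, Hspe1 and Dnaja1. They were chosen by gene name from a per-read table, keeping reads whose poly(A) tail call passed the quality tag and whose class was mRNA, and they make up 10 of the 14042 genes that had such reads. P19 is a wild-type mouse embryonal carcinoma line. The labels repeat 1 growth text (medium with fetal bovine serum) and 1 treatment text for all samples, D0 included, and set the groups apart by day alone. The 500 nM retinoic acid that they name is thus not tied to a day. As the study's methods describe it, D0 cells were undifferentiated, and D2, D4 and D6 cells had spent 2, 4 and 6 days in NDiff 227 medium with 500 nM retinoic acid on poly-L-lysine, so that time, medium and retinoic acid changed together. Poly(A) RNA was sequenced directly on nanopores in 3 biological replicates per day, which gave 12 libraries. All 10 genes had reads in all 12 libraries and passed the filters on low counts, with 38910 reads in total and from 23 to 2164 reads per gene and library.

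Chaperones bind unfolded or partly folded proteins and let go of them again in cycles driven by ATP. HSP70 proteins take up short exposed stretches of a client, J-domain proteins such as Dnaja1 deliver the client and start ATP hydrolysis, exchange factors of the HSP110 type such as Hspa4 reset the cycle, and HSP90 acts later on clients such as kinases and receptors. The endoplasmic reticulum (ER) and the mitochondrial matrix hold their own HSP70 and HSP90 or HSP60 members. The poly(A) tail at the 3′ end of an mRNA is shortened with age and affects how long the mRNA lasts and how well it is translated.

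The 5′ flanks of 3 of these genes show 2 kinds of control element that the family is known for, and they are printed here because the pairs Hspd1 and Hspe1, and Hspa5 and Hsp90b1, are compared below. Each window holds 250 bases before and 50 after a transcription start in RefSeq (GRCm38.p6). Capitals mark matches to the ER stress element, CCAAT and CCACG with 9 bases between them, or to the heat shock element cores GAANNTTC and TTCNNGAA, which were searched on both strands and may overlap. The first line is Hspa5 (chr2:34771840-34772139, plus strand), the next Hsp90b1 (chr10:86705395-86705694, minus strand) and the last Hspe1 (chr1:55087898-55088197, plus strand). In the transcript entries of the files, with 107 bases between them, Hspe1 and Hspd1 start on opposite strands, and these starts differ from those in RefSeq.
Hspa5: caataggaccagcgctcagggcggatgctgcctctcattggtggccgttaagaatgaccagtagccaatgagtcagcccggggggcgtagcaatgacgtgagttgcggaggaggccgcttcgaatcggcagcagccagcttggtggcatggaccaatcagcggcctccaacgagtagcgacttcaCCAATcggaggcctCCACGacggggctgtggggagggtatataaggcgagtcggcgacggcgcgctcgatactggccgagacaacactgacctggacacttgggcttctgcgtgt
Hsp90b1: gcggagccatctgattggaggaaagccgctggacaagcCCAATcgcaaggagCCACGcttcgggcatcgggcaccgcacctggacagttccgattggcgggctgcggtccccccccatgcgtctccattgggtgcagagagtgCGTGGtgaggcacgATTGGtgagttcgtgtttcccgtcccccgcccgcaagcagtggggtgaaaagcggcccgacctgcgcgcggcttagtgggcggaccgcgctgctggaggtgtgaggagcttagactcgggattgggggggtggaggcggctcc
Hspe1: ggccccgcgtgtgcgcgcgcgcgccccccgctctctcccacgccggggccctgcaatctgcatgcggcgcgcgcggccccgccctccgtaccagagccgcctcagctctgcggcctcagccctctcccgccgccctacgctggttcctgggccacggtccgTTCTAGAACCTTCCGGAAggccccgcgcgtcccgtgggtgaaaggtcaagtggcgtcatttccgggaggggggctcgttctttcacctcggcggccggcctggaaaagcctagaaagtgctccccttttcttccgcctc
The ER stress element stood in 39 of 32851 RefSeq promoter windows of the same length (0.119%), among them Hspa5 with 1 match and Hsp90b1 with 2. A heat shock element core stood in 15.1% of all windows, and the run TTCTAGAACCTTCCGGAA between Hspd1 and Hspe1 holds 3 overlapping cores. Windows were matched by symbol, and those counted here cover 6 of the 10 genes (9 windows, as Dnaja1 and Hspd1 have several starts). Hspa9 was left out of this count. That of Dnaja1 at chr4:40722218-40722517 holds 1 core, GAAAATTC, while the other 2 Dnaja1 windows, the second Hspd1 window and that of Hspa4 hold none.

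The libraries held from 120326 (D2 replicate 1) to 613756 (D0 replicate 2) reads assigned to nuclear genes, and the D2 libraries were the shallowest (at most 241064). The 12 libraries came from 13 sequencing runs that each held 1 day, so day and run cannot be told apart, but D0 and D6 shared 2 run dates and their comparison is also given on those dates alone. The names of the D0 runs carry the mark D2, and the sample labels were followed. Pou5f1, a pluripotency factor, averaged 1706 RPM (scaled reads-per-million) in the D0 libraries and 6.63, 0 and 0.902 at D2, D4 and D6. Of the embryonal carcinoma markers, 5 of 5 that could be tested were lower at each later day, with a summed level of 2119 to 2438 RPM at D0 and 187 to 237 at D6, and Zfp42 and Dppa5a at 0 throughout. Of the neuronal markers, 12 of 12 tested were higher at D6, with a summed level of 564 to 615 at D0 and 3197 to 3504 at D6. The glial list never exceeded 40.8 RPM in a library, with Aqp4, S100b and Sox10 at 0, the mesoderm and endoderm list 7.84 with 6 of 8 genes at 0, and the fibroblast-like list 11.1 with Col3a1 and Lum at 0. The part of this shift in cell identity in the results below was not tested, and in bulk RNA fewer cells of a type and less RNA per cell cannot be told apart.

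The level of each mRNA is given in reads-per-million (RPM) of the library after scaling by TMM, a trimmed mean of ratios between libraries. Each read comes from 1 RNA molecule, so levels were not divided by length, and genes are not compared with each other by level here. A gene was called when its adjusted p was at most 0.05 (limma-voom, Benjamini-Hochberg over all 9309 genes tested). The summed level of the 10 genes was 10887 ± 448 RPM (SD, n = 3) in the D0 libraries and 9729 ± 303 (D2), 8463 ± 507 (D4) and 7555 ± 333 (D6) in the later ones. Without scaling, the direction at D2 was the other way, since the 10 genes together took 0.992% ± 0.0327 (SD, n = 3) of D0 reads, then 1.01% ± 0.0204 (D2), 0.838% ± 0.0345 (D4) and 0.805% ± 0.0151 (D6).

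**Figure D1:**
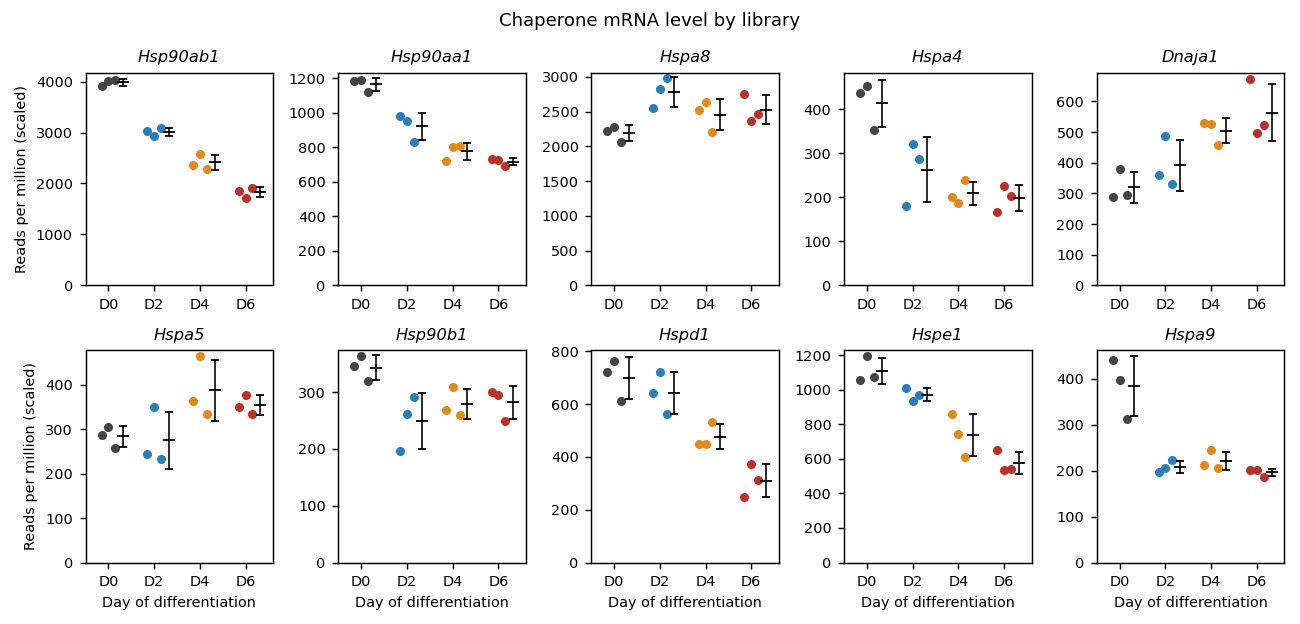
Level of each chaperone mRNA in every library, in scaled RPM (vertical axis, from 0, 1 panel per gene) by day (horizontal axis). Points are libraries, and the bar beside them is the mean ± SD of 3. Hsp90ab1 steps down at each day, from about 3985 to 1828, whereas Dnaja1 climbs from about 320.2 to 564.

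The cytosolic HSP90 pair fell. Hsp90ab1, the constitutive HSP90 of the cytosol (chr17:45567775-45573271), had 3913, 4009 and 4032 RPM at D0, 3034, 2934 and 3080 at D2, 2371, 2578 and 2291 at D4, and 1856, 1720 and 1908 at D6. The ranges of the 4 days did not overlap, and each day was called lower than the one before it. At D6 it was 2.19-fold lower than at D0 (log2 change −1.13, SE 0.07, adjusted p = 2.1e-20 by limma-voom), the lowest p among the 10 genes, and on the shared run dates the log2 change was −1.18.

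Hsp90aa1, the stress-inducible HSP90 (chr12:110690605-110696395), had 1185, 1191 and 1123 RPM at D0, 980, 955 and 834 at D2, 718, 804 and 807 at D4, and 731, 726 and 693 at D6. All later libraries lay below the D0 range. Its log2 change was −0.34 at D2 (adjusted p = 0.028), −0.58 at D4 (5.4e-06) and −0.70 at D6 (SE 0.10, 4.7e-08, limma-voom). This fall was not seen when only reads of higher mapping quality were counted. Its reads lay on 2 transcript entries, and only 19.02% of them had a mapping quality of at least 10. With those reads alone the log2 changes were 0.039, 0.50 and 0.073, none of them called. That share itself moved, from 13.0% of Hsp90aa1 reads at D0 to 22.5% at D6, and the D2 call was lost under 6 of 11 other settings. The D4 and D6 calls were each lost under 1 other setting, this filter, and in 0 of 12 fits without a library. On the shared run dates the D6 change was −0.86 (adjusted p = 5.8e-09, limma-voom).

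The 2 HSP90 mRNAs did not fall in step. The ratio of Hsp90aa1 to Hsp90ab1 was 0.279 to 0.303 in the D0 libraries, 0.271 to 0.326 (D2), 0.303 to 0.352 (D4) and 0.363 to 0.422 (D6), and at D6 it lay above every earlier library. The slope of its log2 on day had p = 0.0016 in an exact permutation test over all 369600 arrangements of the 12 libraries (two-sided, adjusted p = 0.0064 over 6 pairs, which were chosen after the data were seen). On the shared run dates the ratio was 0.280 to 0.292 at D0 and 0.327 to 0.383 at D6.

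In the cytosolic HSP70 machinery the members parted. Hspa8, the constitutive HSP70 (chr9:40800984-40805200), had 2221, 2282 and 2059 RPM at D0, 2556, 2829 and 2984 at D2, 2530, 2646 and 2203 at D4, and 2761, 2361 and 2469 at D6. D2 and D6 lay above D0 in every library, and D4 overlapped D0. The log2 change was 0.36 at D2 (SE 0.09, adjusted p = 0.0030), 0.16 at D4 (adjusted p = 0.14) and 0.19 at D6 (adjusted p = 0.048, limma-voom). The D6 call was lost under 6 of 12 other settings and in 10 of the 12 fits that left out a library, and on the shared run dates the change was 0.09 (adjusted p = 0.42). The D2 call was lost without D2 replicate 3 (adjusted p = 0.053). Of the Hspa8 reads, 51.9% had a mapping quality of at least 10 (39.8% at D0 and 54.2% at D6), and with those alone the changes were larger, 0.60 at D2 (adjusted p = 0.055), 0.77 at D4 (adjusted p = 6.2e-04) and 0.58 at D6. D4 was also called when libraries were scaled by their totals (0.29) and with the main transcript entry alone (0.39).

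Hspa4, the HSP110-type exchange factor for HSP70 (chr11:53259814-53300457), dropped early and stayed low. It had 436, 452 and 353 RPM at D0, 180, 321 and 287 at D2, 200, 188 and 239 at D4, and 167, 227 and 203 at D6. Every later library lay below the D0 range. The log2 change was −0.61 at D2 (adjusted p = 0.010), −0.97 at D4 (5.3e-07) and −1.02 at D6 (SE 0.15, 1.0e-07, limma-voom). Without D2 replicate 1, which held 23 reads of the gene, the D2 value was −0.47 and no longer called (adjusted p = 0.072), and the call was also lost with scaling by library totals (−0.41, adjusted p = 0.10) and with libraries thinned to equal depth (adjusted p = 0.054).

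Dnaja1, a J-domain partner of HSP70 (chr4:40722480-40734964), rose. It had 287, 378 and 296 RPM at D0, 361, 486 and 329 at D2, 530.4, 525 and 459 at D4, and 672, 497 and 523 at D6. D2 overlapped D0, whereas D4 and D6 lay above it in all libraries. The log2 change was 0.31 at D2 (adjusted p = 0.21), 0.65 at D4 (1.4e-04) and 0.79 at D6 (SE 0.13, 2.1e-06, limma-voom), a 1.72-fold rise, and 0.74 on the shared run dates. With the 56.4% of its reads that had a mapping quality of at least 10 (42.7% at D0 and 61.4% at D6), the changes were 0.57, 1.10 and 1.23. The D2 value ran from 0.11 to 0.42 in the fits without 1 library, and was called with scaling by library totals (0.50, adjusted p = 0.015, limma-voom).

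Relative to Hspa8, the partners moved in opposite directions, with all reads counted. The ratio of Dnaja1 to Hspa8 went from 0.146 ± 0.0183 (SD, n = 3) at D0 to 0.222 ± 0.0186 at D6 (exact permutation test on the slope, two-sided p = 0.0028, adjusted p = 0.0064). The ratio of Hspa4 to Hspa8 went from 0.189 ± 0.0150 to 0.0795 ± 0.0179 (exact permutation p = 0.0032, adjusted p = 0.0064), and had reached 0.0934 ± 0.0216 by D2.

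The 2 ER chaperones differed in their course. Hspa5 (BiP, the HSP70 of the ER, chr2:34771970-34777547) had 287, 306 and 258 RPM at D0, 243, 349 and 234 at D2, 363, 464 and 334 at D4, and 349, 378 and 333 at D6. D4 and D6 lay above the D0 range, and D2 overlapped it. The log2 change was −0.01 at D2 (adjusted p = 0.98), 0.44 at D4 (SE 0.14, adjusted p = 0.012) and 0.32 at D6 (adjusted p = 0.062, limma-voom). The D4 call was lost without D0 replicate 3 (adjusted p = 0.067) and without D4 replicate 2 (0.20), and the D6 change passed under 6 of 12 other settings, among them the shared run dates (0.53, adjusted p = 0.0091). Only 30.3% of Hspa5 reads had a mapping quality of at least 10 (17.1% at D0 and 32.5% at D6), and with those alone the change was 1.62 at D4 and 1.14 at D6 (adjusted p = 0.0022).

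Hsp90b1 (GRP94, the HSP90 of the ER, chr10:86690840-86705509) had 346, 363 and 319 RPM at D0, 196, 261 and 292 at D2, 269, 309 and 260 at D4, and 300.6, 296 and 249 at D6. Every later library lay below the D0 range, but no day was called, with log2 changes of −0.43 (adjusted p = 0.080), −0.29 (0.11) and −0.29 (0.090). It passed at D2 in 3 of 12 fits without 1 library (adjusted p = 0.043 to 0.049) and at D4 with a mapping quality of at least 10 (−0.42, adjusted p = 0.018). At D6 it passed under 3 of 12 other settings, including the shared run dates (−0.52, adjusted p = 0.010), and in 5 of 12 fits without 1 library, and with scaling by library totals the change was −0.048 (adjusted p = 0.79). The ratio of Hspa5 to Hsp90b1 was 0.809 to 0.842 in the D0 libraries and 1.16 to 1.34 in the D6 libraries, with D2 replicate 3 (0.800) the lowest of the 12 and D4 replicate 2 the highest. Its slope on day had p = 0.011 (exact permutation test, two-sided, adjusted p = 0.016). These 2 genes both carry the ER stress element printed above.

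The 3 mitochondrial chaperones fell, on different days. Hspa9 (mortalin, the HSP70 of the matrix) had 441, 396 and 313 RPM at D0 and already 196, 205 and 223 at D2, followed by 212, 244 and 206 at D4 and 200.4, 201 and 187 at D6. All later libraries lay below D0, with log2 changes of −0.85 (adjusted p = 2.1e-04), −0.77 (1.9e-05) and −0.94 (SE 0.15, 2.7e-07, limma-voom). Neither D4 against D2 nor D6 against D4 was called.

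Hspd1 (HSP60, the folding chamber of the matrix, chr1:55077835-55088024) had 723, 761 and 611 RPM at D0, 643, 722 and 563 at D2, 449, 448 and 531 at D4, and 249, 371 and 311 at D6. D2 overlapped D0, and D4 and D6 lay below both. The log2 change was −0.11 at D2 (adjusted p = 0.67), −0.54 at D4 (4.4e-04) and −1.15 at D6 (SE 0.13, 8.4e-11), a 2.22-fold fall, and D6 was also called lower than D4 (−0.60, adjusted p = 0.0023, limma-voom).

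Hspe1 (HSP10, the lid of that chamber, chr1:55088132-55091307) had 1057, 1193 and 1071 RPM at D0, 1011, 935 and 967 at D2, 857, 745 and 610 at D4, and 649, 537 and 541 at D6. The D2, D4 and D6 libraries all lay below the D0 range. The log2 change was −0.20 at D2 (adjusted p = 0.30), −0.62 at D4 (5.5e-06) and −0.96 at D6 (SE 0.11, 1.1e-10), and D4 was called lower than D2 (−0.43, adjusted p = 0.035, limma-voom). The D2 value depends on the setting, from −0.28 with a mapping quality of at least 10 (called, adjusted p = 0.037, limma-voom) to 0.021. Without scaling, D2 replicate 1 stood at 1072 RPM, above the D0 range of 983 to 1049.

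Hspd1 and Hspe1, the pair whose starts face away from each other across the printed window, fell by similar amounts. Their ratio (Hspe1 to Hspd1) was 1.59 ± 0.147, 1.53 ± 0.215, 1.57 ± 0.388 and 1.93 ± 0.606 (SD, n = 3) on the 4 days, a slope with p = 0.38 (exact permutation test, two-sided, adjusted p = 0.38). One library, D6 replicate 1, stood at 2.61. The ratio of Hspa9 to Hspd1 dipped from 0.548 ± 0.0541 at D0 to 0.328 ± 0.0599 at D2 and was 0.649 ± 0.139 at D6, with no trend over days called (exact permutation p = 0.30, adjusted p = 0.36).

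Counting the set, 1 of the 10 genes was called higher and 4 lower at D2, 2 higher and 6 lower at D4, and 2 higher and 6 lower at D6. Over all 9309 genes tested, 4.48% were called higher and 6.32% lower at D2, 12.6% and 12.7% at D4, and 19.4% and 18.2% at D6. The median log2 change of the 10 genes was −0.27, −0.56 and −0.82, against −0.05, −0.0017 and 0.02 over all genes. Between neighbouring later days no member was called higher and 2 were called lower each time, Hsp90ab1 and Hspe1 from D2 to D4 (over all genes 2.01% higher and 1.02% lower) and Hsp90ab1 and Hspd1 from D4 to D6 (4.44% and 3.92%). Scaling by library totals in place of TMM brought the median log2 change of all genes to 0.13, 0.12 and 0.26 and turned the calls over all genes from 417 higher and 588 lower to 720 and 373 at D2, from 1171 and 1185 to 1537 and 921 at D4, and from 1809 and 1690 to 2588 and 1162 at D6. All 10 members kept their direction at D6 under it, from −0.91 for Hspd1 to 1.01 for Dnaja1. At D2 Hsp90aa1 (−0.15) and Hspa4 (−0.41) lost their call under it. Calls were gained by Dnaja1 at D2 (0.50), Hspa8 at D4 (0.29) and Hspa5 at D6 (0.56).

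**Figure D2:**
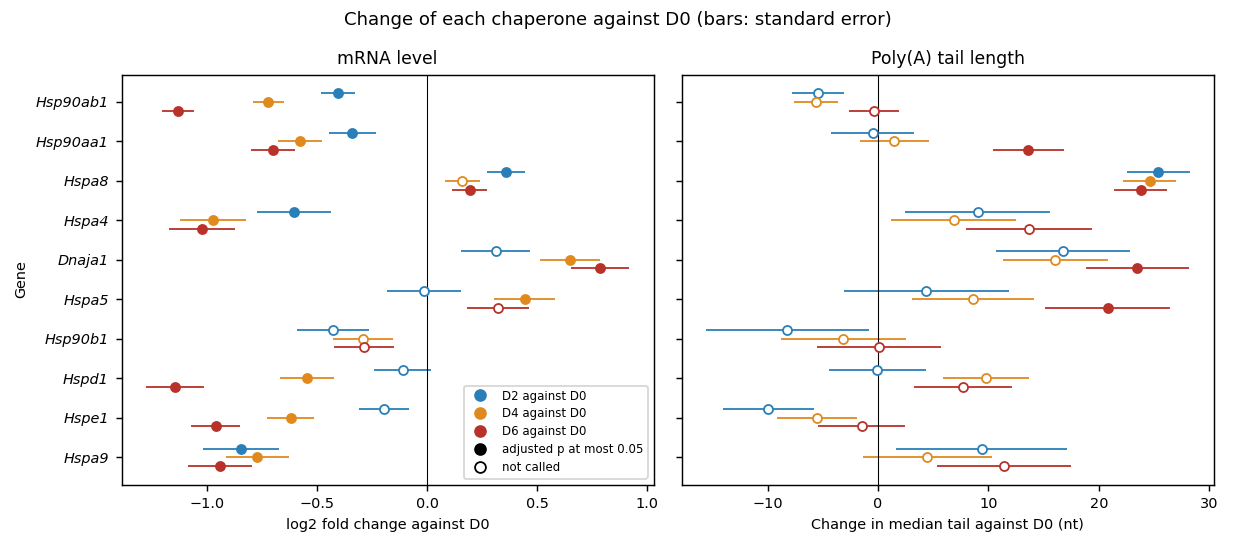
Change of each chaperone against D0 in mRNA level (left, log2 fold change) and in median poly(A) tail length (right, nt), with 1 line per gene and 1 point per day. Bars are standard errors, and filled points had an adjusted p of at most 0.05. Levels mostly lie left of 0 while the filled tail points all lie right of it, and Hspa8 stands near 25 nt at all 3 days.

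Where a change in the poly(A) tail of a chaperone was called, the tail was longer. The tail of a gene in a library is the median over its reads, in nucleotides (nt), tested by limma over the 4841 genes that averaged 10 or more reads in a library. At D2 and D4 Hspa8 was the 1 member called longer, and at D6 there were 4, Hspa8, Dnaja1, Hspa5 and Hsp90aa1. No member was called shorter. Over all genes 0.0826% were called longer and 1.57% shorter at D2, 0.186% and 2.56% at D4, and 2.33% and 2.56% at D6, and the median change over all genes was −2.51, −0.65 and 4.81 nt. For the 10 members it was 2.15, 5.66 and 12.5 nt. Each member averaged 94 or more reads in a library, so the genes over all are shallower. Among the 1050 genes averaging 50 or more reads, 4 were called longer and 104 shorter at D2. The numbers were 15 and 140 at D4, and 57 and 141 at D6. The median change of these genes was −4.54, −3.30 and 0.074 nt.

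**Figure D3:**
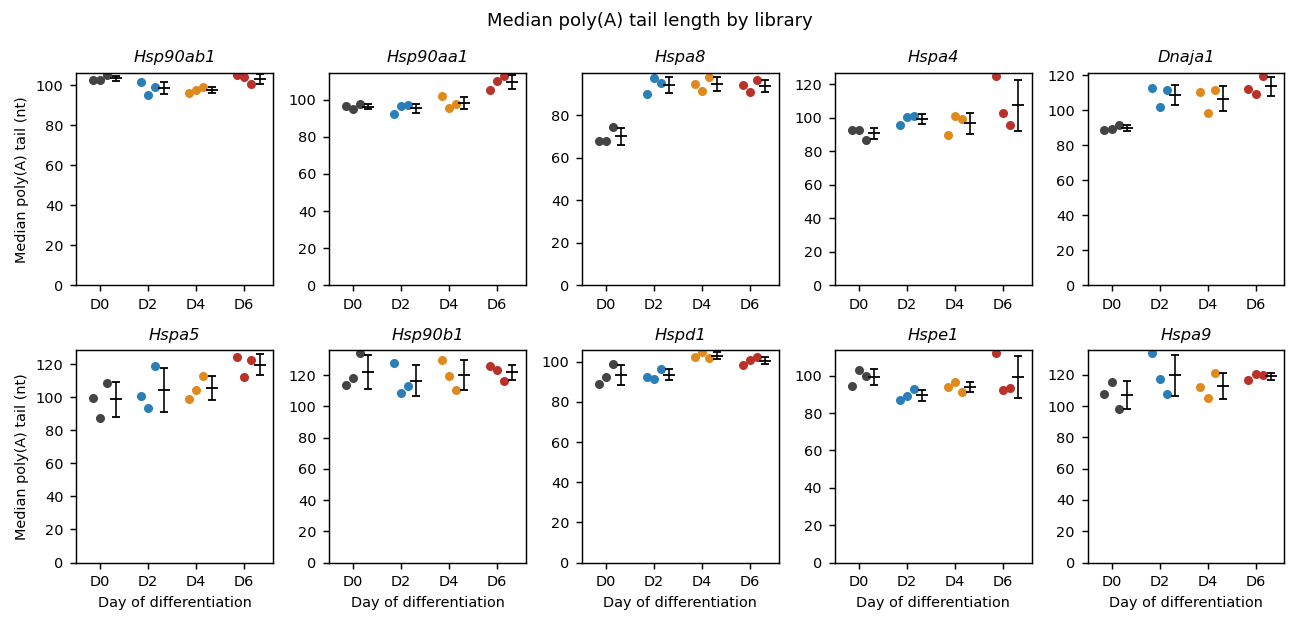
Median poly(A) tail length (nt, vertical axis from 0, 1 panel per gene) of each chaperone in every library by day. Points are libraries, and the bar beside them is the mean ± SD of 3. The Hspa8 panel shows 3 D0 libraries at 67.6 to 74.5 nt and all 9 later ones at 90.1 to 97.7 nt, and Hsp90ab1 stays between 95.0 and 105 nt.

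Hspa8 had the largest change in tail length among the 10 at D2 and D4, and at D6 it stood beside Dnaja1, which changed more than Hspa8 on the shared run dates. Its median tail was 67.7, 67.6 and 74.5 nt at D0, 90.1, 97.6 and 95.1 nt at D2, 94.7, 91.5 and 97.7 nt at D4, and 94.2, 90.9 and 96.5 nt at D6. At D0 these were the shortest medians of the 10 genes in each library, and from D2 on the 9 later libraries all lay above the D0 range with no further step. The change was 25.4 nt at D2 (SE 2.83, adjusted p = 9.5e-08), 24.6 nt at D4 (SE 2.41, 3.1e-10) and 23.8 nt at D6 (SE 2.39, 5.4e-10, limma). Over all genes only 4 were called longer at D2, and they were Hspa8, Hnrnpf, Hprt and March7, named here after their values were seen.

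The middle and upper part of the distribution of Hspa8 tails moved most, while the lowest 10% of reads ended at 34.5 nt at D0 and at 39.3, 38.2 and 35.6 nt on the later days. The lower quartile, median and upper quartile over all D0 reads, 48.1, 69.8 and 107 nt, became 60.9, 95.4 and 137 nt at D2 and 55.1, 94.1 and 139 nt at D6. Reads with tails of 30 to 90 nt made up 62.5%, 57.6% and 58.4% of Hspa8 reads in the D0 libraries and 40.8% to 45.7% in the 9 later ones. The change was −16.9 points at D2 (adjusted p = 1.9e-12), −17.6 at D4 (9.5e-20) and −17.3 at D6 (SE 1.73, 1.6e-19, limma). Tails under 30 nt were 5.76% ± 2.10 of Hspa8 reads at D0 and 5.99% ± 1.78 at D6 (SD, n = 3).

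**Figure D4:**
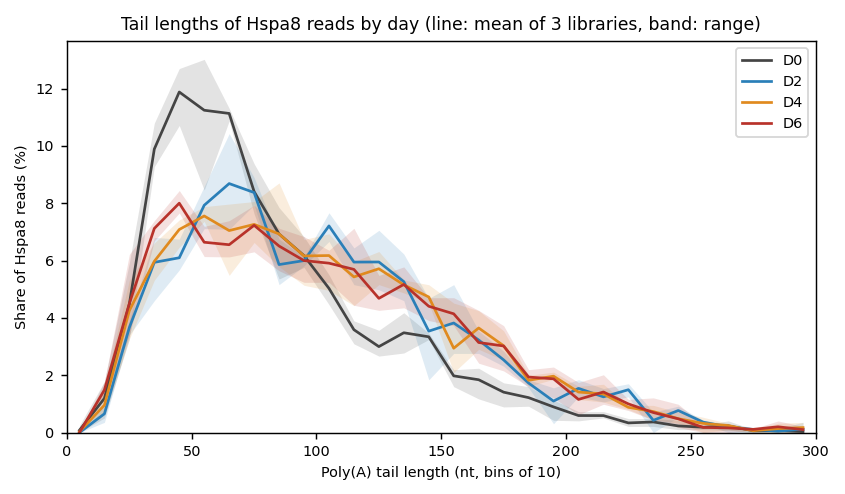
Distribution of poly(A) tail lengths of Hspa8 reads by day, as the share of reads (%) in bins of 10 nt. Lines are the mean of 3 libraries and bands their range. The D0 line peaks in the bin from 40 nt, and the lines of D2, D4 and D6 lie below it from 30 to 70 nt and above it from 100 to 150 nt.

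Several measured properties of the reads bear on the Hspa8 values. All reads of a library had median tails of 100 to 106 nt (D0), 96.6 to 98.5 (D2), 95.2 to 98.3 (D4) and 101 to 103 (D6). Of 5 spike-in RNAs with 1984 reads in all, the median shifted against D0 by −4.96 to 15.3 nt, and the one nearest in tail to Hspa8 at D0 read 61.4, 64.5, 61.5 and 63.3 nt on the 4 days. The one nearest to the later Hspa8 values read 102, 117, 105 and 108 nt, and the shift of 15.3 nt was its value at D2. By sequencing run the median Hspa8 tail was 66.5 to 71.0 nt in the 3 D0 runs, 90.6 to 98.2 in the 3 D2 runs, 87.6 to 97.4 in the 3 D4 runs and 84.5 to 97.8 in the 4 D6 runs. On the run dates shared by D0 and D6 the change was 20.3 nt (adjusted p = 5.3e-06).

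Hspa8 reads were also longer later on, with a median aligned length of 1278.5 bases at D0 and 1820 at D6. In reads of at least 1000 aligned bases the median tail was 67.5 to 74.1 nt in the D0 libraries and 94.4 to 98.1 at D6, and in shorter reads 67.2 to 75.2 and 77.4 to 86.8 nt. The main transcript entry went from 70.1 to 95.2 nt and the next most used one from 69.3 to 86.7 nt. The Hspa8 call for the median tail was kept at D2, D4 and D6 under every other setting run, including all 12 fits without a library, within 18.8 to 28.3 nt.

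Dnaja1 lengthened as it rose in level. Its median tail was 88.8, 89.0 and 91.6 nt at D0, 112, 102 and 111 nt at D2, 110, 98.2 and 112 nt at D4, and 112, 109 and 119 nt at D6. All later libraries lay above the D0 range. The change was 16.8 nt at D2 (adjusted p = 0.28), 16.0 nt at D4 (adjusted p = 0.057) and 23.5 nt at D6 (SE 4.63, 4.8e-04, limma), and 24.4 nt on the shared run dates (adjusted p = 0.0054).

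Hspa5 and Hsp90aa1 were called longer at D6 only, and less firmly. Hspa5 had 99.4, 87.7 and 109 nt at D0 and 124, 112 and 123 nt at D6, a change of 20.8 nt (SE 5.65, adjusted p = 0.020, limma). That call was lost under 5 of 8 other settings and in 3 of 12 fits without a library, and on the shared run dates the change was 17.98 nt (adjusted p = 0.14). Hsp90aa1 had 96.5, 94.7 and 97.8 nt at D0 and 105, 110 and 113 nt at D6, a change of 13.6 nt (SE 3.21, adjusted p = 0.0048, limma), with 9.32 nt on the shared run dates (adjusted p = 0.35). It too was lost under 3 of 8 other settings, and without D6 replicate 2 (adjusted p = 0.051) or D6 replicate 3 (0.056). Hspa8 and Dnaja1 were the members called at D6 within the shared dates.

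The other 6 members were not called at any day, although Hspd1 was called longer at D4 with reads of at least 1000 aligned bases (20.5 nt, adjusted p = 0.020) and with mean tails (10.8 nt, adjusted p = 0.044), against 9.79 nt (adjusted p = 0.29) for the median over all reads (limma). Hsp90ab1, whose level fell most steadily, had a tail of 102 to 105 nt at D0 and 100 to 105 nt at D6, a difference of −0.38 nt with a 95% interval of −4.89 to 4.14. In between, its libraries lay below the D0 range, with 95.0 to 101 nt at D2 and 96.1 to 98.9 nt at D4. Hspe1 also lay below its D0 range at D2, with 86.9 to 92.7 nt against 94.7 to 103 nt. Hsp90b1 had the longest D0 mean of the set, 122 ± 11.03 nt (SD, n = 3), and 122 ± 4.85 at D6. Hspa4 went from 90.7 ± 3.28 to 108 ± 15.2 nt (adjusted p = 0.20), Hspa9 from 107 ± 8.82 to 119 ± 2.19 (0.36), Hspd1 from 93.4 ± 4.87 to 101 ± 1.95 (0.41) and Hspe1 from 99.2 ± 4.21 to 99.4 ± 11.2 (0.91). The 95% intervals at D6 reached 25.2 nt for Hspa4, 23.7 for Hspa9 and 16.6 for Hspd1, so that changes of that size in these 3 genes were not excluded.

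The share of tails of 30 to 90 nt was called lower for Hspa8 at D2 and D4, and for Hspa8, Hsp90aa1 and Dnaja1 at D6, and higher for none. Over all genes 1.9% were called higher and 0.0413% lower at D2, 2.54% and 0.207% at D4, and 2.11% and 0.806% at D6. Hsp90aa1 went from 42.8% ± 0.497 at D0 to 32.7% ± 0.766 at D6 (SD, n = 3, adjusted p = 0.0024, limma) and Dnaja1 from 44.0% ± 1.45 to 33.4% ± 1.78 (adjusted p = 0.040). The Dnaja1 call was lost under all 5 other settings and that of Hsp90aa1 under 2 of 5, both of them on the shared run dates (adjusted p = 0.16 and 0.35). Hspa5 fell short of the threshold, with 36.7% ± 3.64 at D0 and 24.7% ± 5.005 at D6 (adjusted p = 0.056).

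For tails under 30 nt no member was called at any day by limma. At an unadjusted p under 0.05 there were 1, 1 and 2 at D2, D4 and D6, Hspd1 at D2, Hsp90ab1 at D4, and Hsp90ab1 and Hspe1 at D6. Over all genes 0% were called higher and 0% lower at D2, 0.702% and 0.103% at D4, and 1.09% and 0.103% at D6. Hspa5 had 11.5%, 11.5%, 8.59% and 5.56% of its reads in this class in replicate 2 of D0, D2, D4 and D6, and 0% to 3.47% in replicates 1 and 3. Hsp90ab1 had 1.64% ± 0.385 of its reads in this class at D0 and 3.42% ± 0.259 at D6 (SD, n = 3).

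Of the 6 genes whose main transcript had 2 well-populated groups of 3′ ends, Dnaja1, Hspa4 and Hspa5 shifted towards the distal one. The groups are numbered in the deposited table, and groups with at least 5% of a transcript's reads were used. The last 30 bases before the commonest end of each group are printed for Dnaja1 (chr4:40733077-40733106 and chr4:40733871-40733900, plus strand) and Hspa4 (chr11:53261574-53261603 and chr11:53259814-53259843, minus strand). They were cut from the sequence of the main transcript entry of each gene. These 2 genes were chosen because they had both a shift in end use and a tail that differed by end. Capitals mark a polyadenylation signal, AATAAA or ATTAAA.
Dnaja1 proximal: aatgaagAATAAAcacaaatataaaagctc
Dnaja1 distal: ggctgtctaatatactgattacaaagtgtt
Hspa4 proximal: cttgtttatATTAAAacagactattataaa
Hspa4 distal: actAATAAAagaaacctgtcttaacttgaa
Between the signal and the end lie 17 bases at the proximal end of Dnaja1, 15 at the proximal and 21 at the distal end of Hspa4, and neither word is in the Dnaja1 distal window. The ends lie 794 bases apart in Dnaja1 and 1760 in Hspa4, and the distal Hspa4 end is the annotated end of the transcript.

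Of the main-transcript Dnaja1 reads at either end (1027 proximal and 231 distal), the distal ones made up 11.8%, 10.2% and 8.79% at D0, 19.4%, 9.09% and 9.30% at D2, 24.0%, 13.8% and 19.5% at D4, and 23.7%, 31.3% and 25.0% at D6. D4 and D6 lay above the D0 range. The mean went from 10.3% to 26.7%, with p = 9.5e-04 for the slope on day (exact permutation test over 12 libraries, two-sided, adjusted p = 0.0057 over 6 genes, a test chosen after the data were seen). On the shared run dates it was 7.89% to 9.33% at D0 and 29.5% to 31.5% at D6.

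For Hspa4 the distal share, of 883 proximal and 305 distal reads in all, was 22.7%, 19.2% and 16.3% at D0, 26.1%, 20.5% and 29.4% at D2, 12.5%, 31.3% and 33.7% at D4, and 46.5%, 37.9% and 40.5% at D6. D6 lay above all other libraries, and D4 replicate 1, with 48 reads, below all of them. The slope had p = 0.0054 (exact permutation test, two-sided, adjusted p = 0.016), and on the shared run dates the share was 15.4% to 23.1% at D0 and 34.1% to 42.1% at D6. Hspa5, whose ends lie 75 bases apart, went from 5.51% to 13.4% distal (exact permutation p = 0.017, adjusted p = 0.033), and Hspd1, Hspe1 and Hspa9 showed no slope that passed (p = 0.71, 0.79 and 0.19). The Hspa5 shares rest on 743 proximal and 94 distal reads in all, with 3 to 5 distal reads in each D0 library.

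Distal reads carried the longer tails in both genes. In Dnaja1 the median distal tail exceeded the proximal one in 12 of 12 libraries, by 20.2 ± 15.5 nt on average (SD over libraries), with p = 4.9e-04, the smallest an exact sign-flip permutation test over 12 libraries can give (two-sided, adjusted p = 0.0029). In Hspa4 it did so in 11 of 12, by 26.8 ± 23.4 nt (exact permutation p = 0.0044, adjusted p = 0.013). Within proximal reads alone, Dnaja1 tails were 83.7 to 85.6 nt in the D0 libraries and 102 to 110 nt at D6. The part of end use in the change of the Dnaja1 median tail was not tested.

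**Figure D5:**
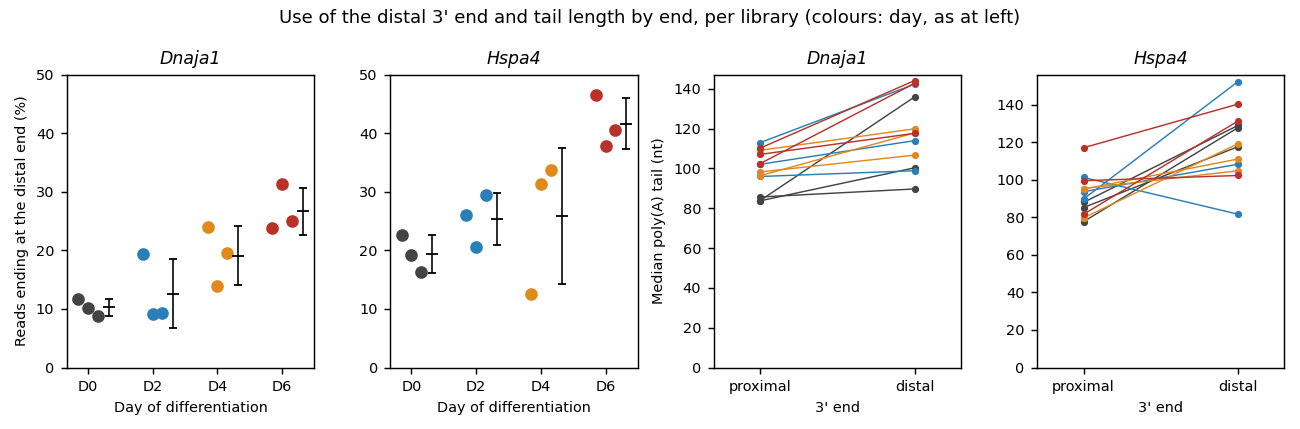
Left 2 panels, share (%) of main-transcript reads at either 3′ end that use the distal one, for Dnaja1 and Hspa4 in every library by day, with the mean ± SD of 3 beside the points. Right 2 panels, median tail (nt) of proximal and distal reads, with 1 line per library coloured by day. Distal shares reach 23.7% to 31.3% for Dnaja1 and 37.9% to 46.5% for Hspa4 at D6, and lines rise to the distal end in 12 and 11 of 12 libraries.

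Around the 10 genes, the HSP90 cochaperones and the mitochondrial and chaperonin lists were called lower more often than higher. Genes called lower and higher at D6 can be read against 18.2% and 19.4% of all genes. Of 18 HSP90 cochaperones tested, 6 were called lower and 0 higher at D2, 6 and 1 at D4, and 9 and 2 at D6, with a median log2 change of −0.55 at D6. The largest falls were in Ptges3 (p23, which binds the closed HSP90 dimer, −0.996), Fkbp4 (a peptidyl-prolyl isomerase of receptor complexes, −0.97), Ahsa1 (an activator of the HSP90 ATPase, −0.91) and Nudc (−0.83).

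Of 13 HSP70 partners tested, 0 were called at D2, 2 lower and 1 higher at D4, and 3 lower and 2 higher at D6, with a median of 0.08. Bag3, a nucleotide exchange factor linked to selective autophagy, changed by −1.21, Bag2 by −1.04 and Hspa14 by −0.67, while Bag6 changed by 0.45 and Hspa13 by 1.03. Of 23 J-domain proteins, 2 were called lower and 1 higher at D2, 1 and 4 at D4, and 2 and 4 at D6, with a median of −0.02. Called with 20 or more reads on average were Dnajb6, which keeps aggregation-prone proteins in solution, at 0.92, and the ribosome-associated Dnajc2 at −0.71.

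Of the inducible heat shock genes, Hspa1a had 0 reads in all 12 libraries, which allows up to 0.702 RPM over the libraries together (3 counts, counting error only), and Hspa1b had 1 read. Of the 3 genes of this list that could be tested, 2 were called lower at D2 and at D4, 1 at D6, and 0 higher. Hsf2, a heat shock transcription factor, changed by −2.34 at D2 (adjusted p = 0.016) and −1.64 at D4 (adjusted p = 0.0084, limma-voom), and stood at 0.30 at D6 (adjusted p = 0.51). Hspb1 (HSP27, a small heat shock protein) was called lower on all 3 days and at D6 by −2.88 on the log2 scale (SE 0.45, adjusted p = 3.8e-07, limma-voom), from 63.7 RPM on average at D0 to 8.72.

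Of 17 genes of ER folding and the unfolded protein response, 4 were called lower and 0 higher at D2, 5 and 1 at D4, and 6 and 2 at D6, with a median of −0.19. Herpud1, an ER-associated degradation factor, changed by −1.46, Atf4, a transcription factor of the integrated stress response, by −1.30 and P4hb, a protein disulfide isomerase, by −0.54, whereas Xbp1, a transcription factor of the unfolded protein response, changed by 0.99. Of 10 mitochondrial chaperones, proteases and import genes, 3, 4 and 6 were called lower at D2, D4 and D6 and 0 higher, with a median of −0.68. Tomm70a (−1.29) and Tomm20 (−1.24) are receptors of the outer membrane, Lonp1 (−1.11) is a matrix protease and Grpel1 (−0.67) the exchange factor of Hspa9. Of the 8 subunits of CCT, the cytosolic chaperonin that folds actin and tubulin, 4, 6 and 6 were called lower and 0 higher, with a median of −0.60, led by Cct4 (−0.79) and Cct8 (−0.75), then Tcp1 (−0.65) and Cct7 (−0.65).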

How the data were processed

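Direct RNA reads of 12 P19 libraries (3 per day) were taken from the authors' per-read table. Per the study's methods, the authors called bases with Guppy, aligned with Minimap2 2.20 to mm10 with GENCODE vM17 genes, called tails with Nanopolish and demultiplexed with Deeplexicon. The authors' mapping quality is a score per alignment and their barcode confidence is a fraction per read. Tail lengths were deposited in nt, without normalization. A second deposited table holds log2 fold changes and adjusted p-values of the authors' DESeq2 fit and was not used.

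Of 6306434 lines, 69 were malformed and 289260 had no barcode. Reads tagged PASS (4673531) of the mRNA class were kept without mitochondrial reads (313187) and reads on entries with a pseudogene biotype in the table (38189), 4274320 in all. Entries named like pseudogenes under another biotype, such as Rps2-ps10, stayed in. Reads were tallied per gene and fitted by limma-voom (limma 3.58.1, R 4.3.3) with TMM scaling and day as the only term, for genes with at least 30 reads and a pseudocount of 0.5. Median tails and percentages of tails per gene and library were fitted by limma, weighted by reads. The fits were tested on simulated data. Ratios within the family and 3′ ends were tested by exact permutation (Python 3.11.15, numpy 2.4.6), after the data were seen. A planned permutation test over sums of the 10 genes was not run. Lists were named at D6 by the up to 4 largest changes among called genes averaging 20 or more reads in a library, or by all called genes where there were 5 or fewer. The 10 genes and all lists were chosen with earlier results of these data known. One gene that the rule for likeness names is not reported here.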

Additional observations from a re-analysis of the deposited data

How the results depend on the processing

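At D6 the falls of Hsp90ab1, Hspa4, Hspa9, Hspd1 and Hspe1 and the rise of Dnaja1 kept their call under all 12 other settings and all 12 fits without a library, and the Hspa8 median tail kept it under the 7 other settings run for it at D2 and D4, the 8 at D6, and all 12 fits without a library. Across the settings 33 results lost or moved out of their call, 20 gained one and 3 reversed, and without 1 library 27 lost and 12 gained one. The reversals were all of Hsp90aa1 with a mapping quality of at least 10, where its log2 changes were 0.039 (D2), 0.50 (D4) and 0.073 (D6), none of them called. The cause was not tested. Depth matters, since thinning to 120326 reads per library left 2 members called in level at D2 and 5 at D4, in place of 5 and 8. At D6 only Hspa8 lost its call under it (adjusted p = 0.052, limma-voom).

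For the median tail, members called at D4 were 3 with mean tails, 2 with at least 50 reads per library, 2 with the main transcript entry, 2 with reads of at least 1000 aligned bases (9 members tested, without Hspe1) and 1 otherwise. At D6 they were 2 with a mapping quality of at least 10, 2 with the main entry and 2 on the shared run dates, in place of 4. For tails of 30 to 90 nt, 3 calls over the 3 days, 1 of them at D6, were left with a mapping quality of at least 10, in place of 5 and 3, and 1 at D6 on the shared run dates. For tails under 30 nt a limit of 35 nt gave 1 call in all, at D4, in place of 0.

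Without 1 library, members called in level ranged from 19 to 22 over the 3 days, 3 to 6 at D2 (3 without D2 replicate 3), 7 to 9 at D4 and 7 to 8 at D6. For the median tail the range was 4 to 7 over the 3 days, 1 to 2 at D4 (2 without D4 replicate 2) and 2 to 4 at D6 (2 without D6 replicate 3). For tails of 30 to 90 nt it was 4 to 5, with 1 to 2 at D4 (2 without D0 replicate 1) and 2 to 3 at D6. For tails under 30 nt it was 0 to 1 over the 3 days, at D4 (1 without D4 replicate 2) and at D6 (1 without D4 replicate 3).

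With the replicate number as a block, 20 calls in level over the 3 days were left in place of 21, as Hspa8 at D6 was lost (adjusted p = 0.052), and the share of 30 to 90 nt tails of Dnaja1 at D6 was lost (adjusted p = 0.081). Over 18 same-number pairs of libraries the correlation of deviations was −0.138 to 0.172 (median 0.032, against −0.0075 for pairs of other numbers). Yet 9 of 12 libraries correlated best with their own number, so libraries of equal number were not shown to be independent. Per the study's methods, the 3 replicates of a day were told apart by 3 barcodes. The part of the barcode in these values was not tested. The planned setting that keeps all transcript entries whatever their biotype was not run. The reported values keep all biotypes but those of pseudogenes. The settings on run dates, read length and protein-coding entries were chosen after the data were seen.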

Other observations

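The genes whose log2 levels followed each chaperone most closely over the 12 libraries, among 2795 genes with a mean of at least 20 reads, are given by Pearson's r as a description, since all points share the same libraries and the same course of differentiation. Hsp90ab1 was followed by Ccnd3, Eef1g and Rps2-ps10 (r = 0.989 each), and Hsp90aa1 had Npm1 and Fbl (0.964 each) among its closest. Hspa4 was followed by Cnot1 and Iars (0.968 each) and Eef2 (0.958). Among the mitochondrial members, Hspe1 was followed by Ran (0.981), Gm4737 (0.973) and Nup43 (0.970), Hspd1 by Ssrp1 (0.974), Nup133 (0.969) and Hells (0.964), and Hspa9 by Mthfd2 (0.951), Tpi1 (0.946) and Atp5b (0.939).

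For the 4 remaining members the values were as follows. Dnaja1 was followed by Hsbp1 (0.960), Arf4 (0.956) and Mrps21 (0.942), Hspa8 by Pdzd11 (0.885), Polr2j (0.858) and Hspb11 (0.848), Hspa5 by Mageh1 (0.892), Ctsb (0.870) and Chtop (0.862), and Hsp90b1 by Cd320 (0.926), Pdia3 (0.908) and Dnajc8 (0.896). Pdia3 and Dnajc8 are also on the lists of ER folding genes and J-domain proteins.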
